A study of Mus musculus with 4 samples.

Results

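Excitatory neurons without *Prox1* were selected on their transcript counts among tdTomato-positive forebrain cells of mice at postnatal day 5, which had been sorted and profiled by single-cell RNA sequencing. The values that chose them were counts of 11 genes, so that the levels of those genes are a description and not a finding. A cell was a member if it held at least 2 UMIs (unique molecular identifiers, each the tag of 1 captured transcript molecule) of *Neurod2* and *Neurod6* together and no UMI of *Prox1*, *Eomes*, *Dlx1*, *Dlx2*, *Mki67*, *Top2a* or *Pdgfra*, with at most 1 UMI of *Aqp4* and *Gja1*. Members were drawn from barcodes that had between 2000 and 40000 UMIs, no fewer than 1000 genes and a mitochondrial share of 10% or less. Of the 27742 barcodes deposited, 17623 met these limits, and 143 of them (0.811%) were members.

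The mice were C57BL/6 by the labels (C57BL/6 J in the study's methods) and carried the NestinCreERT2 driver and the tdTomato reporter, with *Chd8*+/+ in the control and *Chd8*+/F in the mutant. Tamoxifen at embryonic day 14.5 activates Cre in nestin-expressing progenitors, which marks them and their progeny with tdTomato and, in the mutant, removes the floxed part of 1 *Chd8* allele, so that both genotypes had received Cre and tamoxifen. The sort was on tdTomato, and the kept barcodes also held 359 with at least 5 UMIs of *C1qa* and *C1qb*, which mark microglia, a cell type that does not descend from these progenitors. Each genotype had 2 libraries (10x Genomics 3′ chemistry), each pooled from 3 mice, so that p-values refer to the spread between libraries and not to that between mice.

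Both libraries of replicate 1 were counted with Cell Ranger 7.0.0 and both of replicate 2 with version 5.0.1, according to the matrix headers. The replicates also differed in the RNA of the sex chromosomes. *Xist* had a UMI in 96.6% of kept cells of control replicate 2 and in 95.1% of mutant replicate 2, against 0.175% and 0.177% in the replicate 1 libraries, where Y-linked genes were found in 88.5% and 87.4% of cells. The *Xist* values of replicate 2 go against the male sex that the study states for these samples. Replicate number, software version and sex-linked RNA therefore cannot be told apart, and most values below are stated library by library.

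*Neurod2* (chromosome 11, 98325415 to 98329648, mm10) and *Neurod6* (chromosome 6, 55677822 to 55681263) encode basic helix-loop-helix factors that are turned on as glutamatergic neurons of the cortex and hippocampus leave the cell cycle. *Prox1* (chromosome 1, 190118035 to 190170714) encodes a homeodomain factor that, among these neurons, marks granule cells of the dentate gyrus, whereas *Eomes* marks the intermediate progenitors that precede both. In the neocortex, *Cux2* is known for neurons of the upper layers, and *Bcl11b* and *Fezf2* for deep-layer neurons that project below the cortex.

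The members came mostly from replicate 1. Control replicate 1 held 88 members (1.54% of its 5710 kept barcodes, 95% interval 1.24 to 1.90) and mutant replicate 1 held 41 (0.725% of 5659, interval 0.520 to 0.982). Control replicate 2 held 3 (0.101% of 2973, interval 0.0208 to 0.295) and mutant replicate 2 held 11 (0.335% of 3281, interval 0.167 to 0.599). The 2 replicate 1 libraries thus carried 129 of the 143 members (90.2%), and any value for control replicate 2 rests on 3 cells. All intervals are exact (Clopper-Pearson) and reflect counting error only.

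The summed UMIs of the members were 889919 and 402131 in control and mutant replicate 1, and 27989 and 111951 in replicate 2. Their median UMIs per cell were 8711, 7009, 9323 and 9076 in control replicates 1 and 2 and mutant replicates 1 and 2, against 11838, 11503, 11497 and 11547 over all kept barcodes. No barcode sequence was shared by members of different libraries, and 1 member's barcode was also present in another library.

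The criterion on *Prox1* removed the most cells. Of 814 kept barcodes with at least 2 UMIs of *Neurod2* and *Neurod6*, 543 held *Prox1*, 316 *Eomes*, 142 *Mki67* or *Top2a*, 77 *Pdgfra* and 70 *Dlx1* or *Dlx2*, and 44 held more than 1 UMI of *Aqp4* and *Gja1*. A further 211 cells met every other criterion but held *Prox1*, and these are called *Prox1*-positive below. They were deeper than members in every library, at medians of 12057, 10523, 12195 and 10435 UMIs per cell, so that a gene is more readily seen in them, and a count of 0 for *Prox1* comes more readily in a shallower cell. They held a median of 11, 15.5, 11 and 8 *Prox1* UMIs in the 4 libraries (control 1 and 2, mutant 1 and 2), and 15 of them held exactly 1. Just inside the limit on *Neurod2* and *Neurod6* lay 29 members with 2 UMIs, and just outside it 56 cells with 1, while 42 members held 10 or more. *Tbr1* was found in 44.8% of the 29 and in 17.9% of the 56, at median depths of 3768 and 3832 UMIs.

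*Prox1*-positive cells took a like share of every library, at 1.19% and 1.01% of kept barcodes in the control libraries and 1.29% and 1.22% in the mutant libraries. The cells without *Prox1* did not. Among cells with or without *Prox1* that met the other criteria, those without made up 56.4% of 156 cells in control replicate 1, 9.09% of 33 in control replicate 2, 36.0% of 114 in mutant replicate 1 and 21.6% of 51 in mutant replicate 2. The control libraries were thus the highest and the lowest, with both mutant libraries between them.

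**Figure D1:**
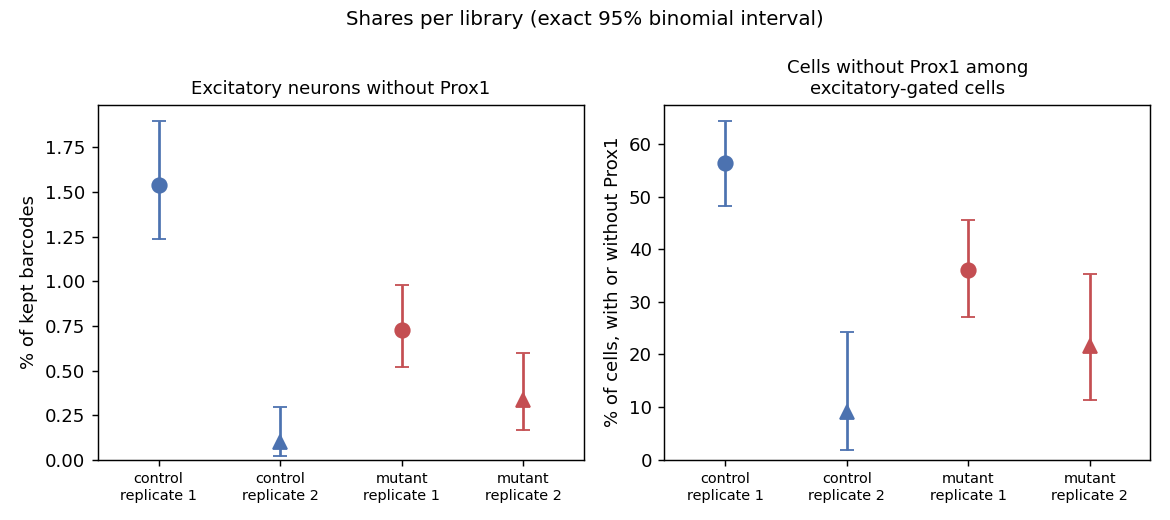
Share of excitatory neurons without *Prox1* among kept barcodes (left) and among excitatory-gated cells with or without *Prox1* (right), in percent, for each of the 4 libraries with exact 95% binomial intervals. Circles are replicate 1 and triangles replicate 2. The control libraries are the highest (1.54% and 56.4%) and the lowest (0.101% and 9.09%) in both panels.

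Between genotypes, the share of members was 0.821% ± 1.02 in control and 0.530% ± 0.275 in mutant libraries (mean ± SD, n = 2 each), a difference of -0.29 percentage points (exact permutation test, two-sided, p = 1). Within replicate 1 the mutant library was lower by 0.817 points, and within replicate 2 it was higher by 0.234 points. The share without *Prox1* among excitatory-gated cells was 32.8% ± 33.5 in control and 28.8% ± 10.2 in mutant libraries (n = 2 each, exact permutation p = 1), at -20.4 points within replicate 1 and 12.5 points within replicate 2. On cells thinned to 4000 UMIs each, where control replicate 2 held 9 members, the difference within replicate 2 was 1.54 points (24.3% and 25.9%) and that within replicate 1 was -21.7 points. It was likewise 1.54 points within replicate 2 (3.23% and 4.76%) and -21.0 points within replicate 1 without 27 members that held RNA of other cell types, described at the end, where the share of members among kept barcodes differed by 0.0273 points within replicate 2. The 27 were taken out of the members only, and all 211 *Prox1*-positive cells stayed among the excitatory-gated cells, which lowers the share without *Prox1*. Adjusted over the 2 shares tested here, every p is 1. A comparison of 2 libraries with 2 cannot give a p below 0.33, and without control replicate 1 the difference in the share of members was 0.429 points.

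The markers of the label were met in part. *Neurod2* was found in 134 members (93.7%) and *Neurod6* in 112 (78.3%), with both in 103, which the rule required in part. *Slc17a7*, which encodes the vesicular glutamate transporter VGLUT1, was found in 5 of 143 members (3.5%, interval 1.14 to 7.97), at 5.62 and 9.95 CPM (UMIs per 1e6 UMIs) in control and mutant replicate 1 and at 0 in both replicate 2 libraries. It was also rare in *Prox1*-positive cells (15 of 211, 7.11%). *Slc17a6*, which encodes VGLUT2, was found in 73 members (51.0%), and *Tbr1*, a T-box factor of glutamatergic neurons, in 79 (55.2%). By library, the share with *Slc17a6* was 59.1% and 33.3% in control replicates 1 and 2 and 43.9% and 18.2% in mutant replicates 1 and 2. Background was read in *Pdgfra*-positive cells, which should lack these genes. Over all 4275 of them, *Slc17a6* was found in 1.52%, *Tbr1* in 2.60% and *Slc17a7* in 0.398%. In the 4094 that held no *Neurod2* or *Neurod6*, which removes cells with excitatory RNA in advance, the shares were 0.464%, 1.42% and 0.147%, at median depths of 10135 to 11578 UMIs per library. Values for *Pdgfra*-positive cells below are those of the 4094.

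*Cux2*, the remaining marker of the label, was found in 76 members (53.1%) and in 5 of 211 *Prox1*-positive cells (2.37%). It was not particular to neurons in these libraries, since 36.0% of *Pdgfra*-positive cells held it. *Gad2*, which encodes the GABA-synthesizing enzyme of inhibitory neurons, was found in 8 members (5.59%), under its share in *Pdgfra*-positive cells (11.3%). The rule left out cells with *Dlx1* or *Dlx2*, genes of inhibitory neurons, and no such limit was set on *Pdgfra*-positive cells. The share of *Gad2* in members was thus fixed in part by the choice of cells.

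The members differed from *Prox1*-positive cells in many genes besides *Prox1*, given here as a description because *Prox1* itself chose the groups. The 10 genes with the largest mean log2 ratio over libraries were *Syt4*, *Meis2*, *Pou3f1*, *Robo2*, *Hs6st2*, *Epha5*, *Tafa2*, *Mpped1*, *Mef2c* and *Meg3*. They were ranked among 449 of 32285 genes, those higher in all 4 libraries and at 50 CPM or more in every library of members. *Syt4*, which encodes a synaptotagmin of dense-core vesicles, was at 460, 1286, 368 and 500 CPM in members of control 1, control 2, mutant 1 and mutant 2 and at 7.25, 0, 2.35 and 0 CPM in *Prox1*-positive cells. A single member held 94.4%, 52.0% and 82.1% of its UMIs in control 2, mutant 1 and mutant 2, and 11.2% in control 1. *Meis2*, a TALE homeodomain factor, was at 2070, 1858, 2024 and 634 CPM in members, against 129, 23.6, 107 and 29.1 CPM. *Mef2c*, a MADS-box factor of maturing neurons, was at 1838, 715, 1211 and 509 CPM, against 66.4, 57.4, 35.2 and 58.2 CPM.

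Each of these had every library of members above every library of *Prox1*-positive cells. The same held for *Pou3f1* (139 to 255 CPM in members), a POU factor, and for *Epha5* (286 to 967 CPM), a receptor for ephrins. *Robo2*, a receptor for Slit proteins, ranged from 107 to 1207 CPM in members and from 0 to 84.5 CPM in *Prox1*-positive cells, and was lower in the replicate 2 libraries of both.

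Among 558 genes that were lower in members in all 4 libraries, the leading ones were *Gal*, *Prox1os*, *Dusp14*, *Kitl*, *Zfpm2*, *Tshz1*, *Gadd45g*, *Adra2c*, *Insc* and *Synpr*. *Gal*, which encodes the neuropeptide galanin, was at 1.12 CPM in control replicate 1 and 0 in the other libraries of members, against 71.2 to 155 CPM in *Prox1*-positive cells. *Prox1os*, an antisense transcript of the *Prox1* locus, was at 1.12, 0, 0 and 17.9 CPM, against 140, 67.6, 142 and 143 CPM. *Neurod1*, a further NeuroD factor that acts in granule cell development, was at 152, 107, 380 and 670 CPM in members and 1425 to 1868 CPM in *Prox1*-positive cells. *Zbtb20*, a zinc-finger repressor of the developing hippocampus, was at 2611, 2501, 3494 and 4243 CPM, against 7716 to 9449 CPM. For both, the 2 mutant libraries of members lay nearer to the *Prox1*-positive cells than the 2 control libraries did.

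**Figure D2:**
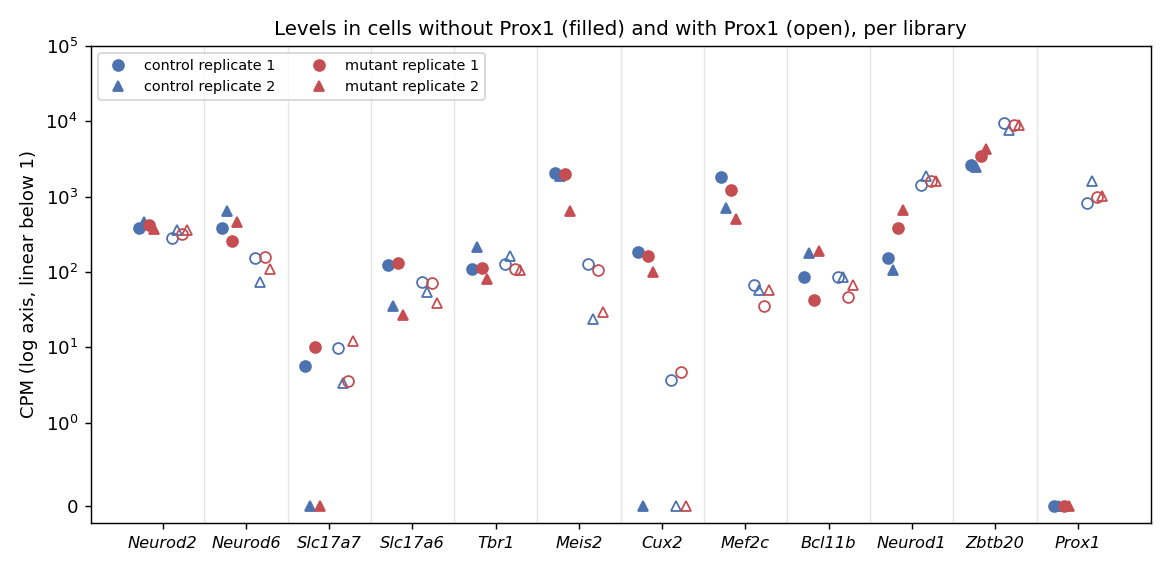
Levels of 12 genes in CPM (UMIs per 1e6 UMIs, log axis, linear below 1) in excitatory neurons without *Prox1* (filled) and in *Prox1*-positive cells (open), with 1 point for each library (circles replicate 1, triangles replicate 2, blue control, red mutant). *Meis2*, *Mef2c* and *Neurod6* are higher and *Neurod1* and *Zbtb20* lower in every library of cells without *Prox1*, and *Slc17a7* is at 12.1 CPM or less in both.

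Against the 52 cells that met the rule but held *Eomes*, the leading genes higher in members in all 4 libraries were *Meg3*, *Mef2c*, *Dab1*, *Tafa2*, *Rian*, *Caly*, *Cspg5*, *Arpp21*, *Kcnma1* and *Ntm*. *Dab1*, the intracellular adaptor of reelin signalling in migrating neurons, was at 1772, 179, 1338 and 80.4 CPM in members, but 1 cell held 41.4% of its UMIs in mutant replicate 1, 4 of 5 in control replicate 2 and all 9 in mutant replicate 2. *Tac2*, *Mfap4*, *Vps37b*, *Ezr*, *Klf3*, *Ccnd2*, *Gm11266*, *Pik3r3*, *Mdk* and *Sf3b4* led the lower genes, of which *Ccnd2*, a D-type cyclin, was at 51.7, 0, 42.3 and 89.3 CPM. *Eomes*-positive cells numbered 26, 2, 19 and 5, so that the replicate 2 values rest on few cells on both sides.

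At least 1 UMI of the immature neuron list was held by 142 of 143 members, and the same number held the mature neuron list. Single genes of a list were found in fewer. All 12 genes of the immature neuron list were found, led by *Tubb2b* and *Tubb3*, which encode neuronal tubulins, *Sox11* and *Stmn2*, and their summed level in members was 16293, 20437, 17440 and 24404 CPM, near that of *Prox1*-positive cells (18041, 19213, 19320 and 24067 CPM). *Dcx*, a microtubule-associated protein of migrating neurons, was found in 135 members (94.4%). *Gap43*, a protein of growing axons, was at 1081, 1072, 689 and 581 CPM in members, against 121, 169, 153 and 172 CPM in *Prox1*-positive cells. All 12 genes of the mature neuron list were found too, led by *Rbfox1*, *Meg3*, *Map2* and *Nrgn*. Their sum was higher in members than in *Prox1*-positive cells in every library, at 8472, 3251, 8060 and 2394 CPM against 4952, 1723, 4994 and 1509 CPM. *Map2*, a microtubule-associated protein of dendrites, was found in 138 members and *Snap25*, a protein of vesicle fusion, in 101, whereas *Camk2b* and *Camk2a*, subunits of a kinase of glutamatergic synapses, were found in 73 and 15.

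The summed level of the axon guidance genes differed between the replicates, though not that of each gene. The 22 listed genes summed to 10568 and 10835 CPM in control and mutant replicate 1 and to 2751 and 3278 CPM in replicate 2, led by *Dcc*, *Robo1*, *Robo2* and *Unc5d*. *Unc5d*, a netrin receptor of upper-layer neurons, was at 1110, 143, 1228 and 107 CPM in members, against 90.6, 3.38, 62.2 and 4.85 CPM in *Prox1*-positive cells, and *Robo1* at 1392, 214, 1315 and 44.7 CPM, against 165, 10.1, 174 and 4.85 CPM. *Dcc*, the netrin receptor of growing axons, was lower in members in every library (2089, 179, 1870 and 116 CPM against 2841, 250, 2243 and 196 CPM). The contrast between replicates was present in both kinds of cell. It was not particular to this list, since ion channel genes summed to 3842, 715, 2815 and 652 CPM in members. Median mitochondrial shares of members also differed, at 1.95%, 4.63%, 2.91% and 4.45% in control 1, control 2, mutant 1 and mutant 2, and their part was not tested. Whether intronic reads were counted is not given in the sources used here and may differ with the software version. That would change the level of long genes such as these, and its part in the contrast was not tested.

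*Pcdh9*, a protocadherin, was found in 106 members (74.1%) at 1835, 0, 962 and 116 CPM, against 129, 3.38, 84.5 and 4.85 CPM in *Prox1*-positive cells. It was higher in members except in control replicate 2, where none of the 3 cells held it. *Cdh4*, a classical cadherin of growing axons, was at 356, 357, 264 and 89.3 CPM, against 45.9, 13.5, 29.3 and 14.6 CPM, with every library of members above every library of *Prox1*-positive cells. *Epha3*, an ephrin receptor, was at 430, 107, 763 and 89.3 CPM, against 29.0, 13.5, 38.7 and 9.7 CPM, with the same order. Its relative *Epha4* had the opposite order, at 354, 71.5, 637 and 598 CPM, against 814, 905, 755 and 902 CPM. The potassium channel gene *Kcnd2*, found in 105 members (73.4%), was at 0 CPM in control replicate 2 and overlapped between the groups. *Cdh4*, *Epha3* and *Epha4* were chosen after their values had been seen.

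Genes of the hippocampal CA list apart from *Zbtb20* were found in fewer members. *Grik4*, a kainate receptor subunit, was found in 55 (38.5%), *Spock1* in 36 (25.2%), *Man1a* in 13 (9.09%) and *Wfs1* in 5 (3.5%). *Spock1*, a proteoglycan gene, was at 71.9 and 47.2 CPM in control and mutant replicate 1, against 2.42 and 3.52 CPM in *Prox1*-positive cells, and at 0 in both replicate 2 libraries. Of the subplate and claustrum list, *Ccn2* was at 0 and *Gnb4* was found in 28 members (19.6%).

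Some receptors of glutamate and GABA were counted in most members, though not in neurons alone. Of the 14 ionotropic glutamate receptor genes, *Gria2*, the AMPA receptor subunit that limits calcium entry, was found in 136 members (95.1%) at 1077 to 1393 CPM, and *Grin2b*, the NMDA receptor subunit of immature synapses, in 132 (92.3%) at 420 to 1019 CPM. *Grin2a*, the subunit of mature NMDA receptors, was found in 45 (31.5%). *Pdgfra*-positive cells held *Gria2* in 91.1%, *Grin2b* in 9.89% and *Grin2a* in 2.83% of cells. Of the 12 GABA-A receptor genes, *Gabra2* was found in 95 members (66.4%), at 311, 35.7, 229 and 107 CPM, and in 19.2% of *Pdgfra*-positive cells. *Nlgn1*, a postsynaptic adhesion molecule, was found in 125 members (87.4%) and 79.7% of *Pdgfra*-positive cells. The postsynaptic and adhesion list summed to 6653, 1322, 5802 and 1393 CPM in members, below *Pdgfra*-positive cells in every library (7585, 1807, 7926 and 1675 CPM). Of the 8 dentate granule genes, *C1ql2*, *Tdo2* and *Lct* were at 0, and *Igfbp5*, which encodes a binding protein of insulin-like growth factors, was found in 14 members, *Dock10* in 6, *Plk5* in 4 and *Calb1* and *Dsp* in 1 each. Their sum of 86.5, 35.7, 24.9 and 17.9 CPM in members overlapped that in *Prox1*-positive cells (29.0, 37.2, 28.2 and 41.2 CPM). Of the Cajal-Retzius list, *Trp73* and *Lhx5* were at 0, and *Reln*, the secreted glycoprotein of those cells, was found in 6 members.

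The members were not uniform. They were divided by UMIs of *Cux2*, which the rule did not use, in a division chosen after the data had been examined. It was given no test. *Cux2* was found in 55 of 88 members of control replicate 1 (62.5%, interval 51.5 to 72.6), in 0 of 3 in control replicate 2 (interval 0 to 70.8), in 18 of 41 in mutant replicate 1 (43.9%, interval 28.5 to 60.3) and in 3 of 11 in mutant replicate 2 (27.3%, interval 6.02 to 61.0). Fewer genes are seen in each cell after thinning to 4000 UMIs. Among the cells that met the rule after thinning, the shares were 37.7%, 0%, 27.8% and 20%. Median depths were 9268 UMIs in the 76 cells with *Cux2* and 8778 in the 67 without it.

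Genes of deep-layer neurons were found on both sides of this division. The most widely found of the 13 listed was *Tbr1*, in 47 cells with *Cux2* and 32 without it. *Tle4* was found in 35 and 35, *Sox5* in 41 and 24, *Zfpm2* in 27 and 32 and *Ldb2* in 39 and 16. The least widely found was *Hs3st4*, in 1 and 2. *Bcl11b*, a zinc-finger factor of neurons that project below the cortex, was found in 34 members (23.8%), of which 21 held *Cux2*, and also in 64 *Prox1*-positive cells (30.3%) and 15.7% of *Pdgfra*-positive cells. Its levels of 85.4, 179, 42.3 and 188 CPM in members overlapped those in *Prox1*-positive cells (85.7, 84.5, 45.8 and 67.9 CPM). *Fezf2*, a zinc-finger factor that specifies such neurons, was found in 9 members (6.29%) and in 62 *Prox1*-positive cells (29.4%). It was lower in members in all 4 libraries, at 7.87, 35.7 (from 1 UMI), 7.46 and 8.93 CPM against 36.2, 43.9, 36.4 and 48.5 CPM. *Unc5d* was found in 66 of the 76 cells with *Cux2* and 40 of the 67 without it, but its levels were alike, at 1130 and 1076 CPM in control replicate 1 and 1317 and 1121 CPM in mutant replicate 1.

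Members with *Cux2* also held more UMIs of several other neuronal genes, of which those given here and in the next paragraph were chosen after their values had been seen. *Mef2c* was at 2435 CPM in cells with *Cux2* and 794 CPM in those without in control replicate 1, and at 2003 and 253 CPM in mutant replicate 1. *Gpc5*, a glypican, was at 1077 and 170 CPM in control and 341 and 49.5 CPM in mutant replicate 1, where 1 cell held 41 of its 84 UMIs. *Rasgrf2*, an exchange factor for Ras known from layer II and III neurons, was found in 21 cells with *Cux2* and 5 without it, and *Pou3f1* in 43 and 22. *Nrgn*, a calmodulin-binding protein of dendrites, was at 893 and 223 CPM in control and 822 and 22.0 CPM in mutant replicate 1, but 1 cell held 83.8% of its UMIs in mutant replicate 1 and 1 cell 35.8% in control replicate 1. *Klhl1*, a kelch-like actin-binding protein, was found in 9 and 1.

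Members without *Cux2* held more of a group that included *Zbtb20*. It was at 3858 CPM in cells without *Cux2* and 1900 CPM in those with it in control replicate 1, and at 5315 and 1989 CPM in mutant replicate 1. *Nfib*, a nuclear factor I gene, was at 2655 and 1589 CPM in control and 4293 and 1417 CPM in mutant replicate 1. *Calb2*, which encodes the calcium-binding protein calretinin, was found in 26 cells without *Cux2* and 14 with it, at 352 and 145 CPM in control and 901 and 114 CPM in mutant replicate 1. *Neurod1* was found in 43 and 29, at 297 and 68.9 CPM in control and 467 and 309 CPM in mutant replicate 1.

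Some further genes were found in more cells without *Cux2* than with it. *Tgfb2*, a ligand of the TGF-beta family, was found in 27 cells without *Cux2* and 10 with it, and *Fgfr1*, a receptor of fibroblast growth factors, in 34 and 16. *Tac2*, a tachykinin gene, was found in 11 cells without *Cux2* and in none of the 76 with it, and *Chd7*, a chromodomain helicase related to *Chd8*, in 20 and 8. *Chd7* was at 108 and 23.0 CPM in control and 104 and 13.6 CPM in mutant replicate 1.

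**Figure D3:**
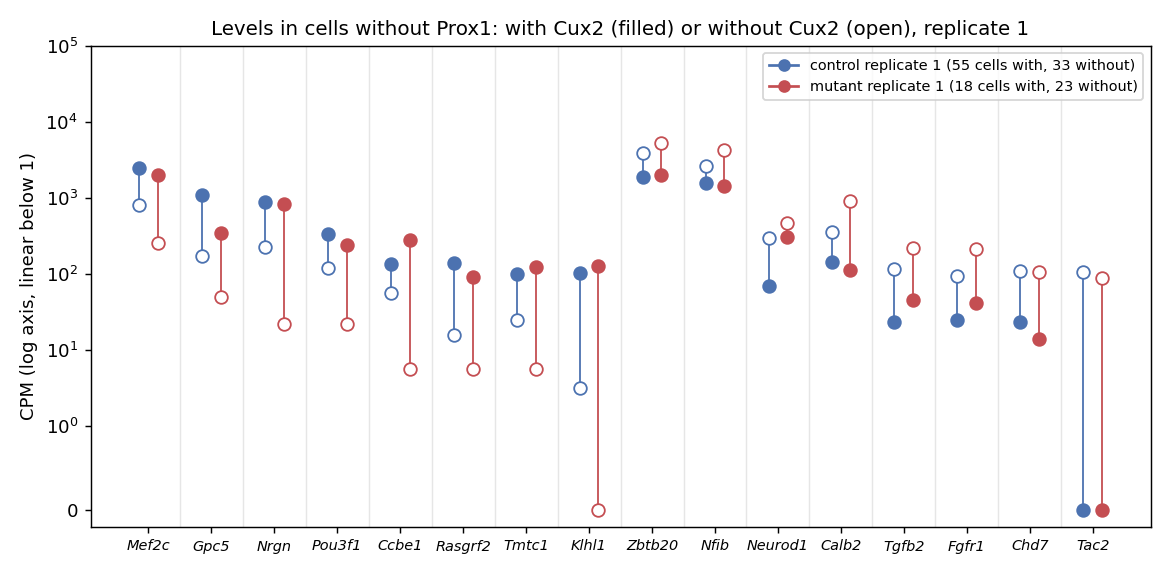
Levels of 16 genes in CPM (log axis, linear below 1) in excitatory neurons without *Prox1* that held *Cux2* (filled) or did not (open), joined by a line for control (blue) and mutant (red) replicate 1. The 8 genes on the left, from *Mef2c* to *Klhl1*, are higher with *Cux2* in both libraries, and the 8 on the right, from *Zbtb20* to *Tac2*, are lower.

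*Zbtb20* of that division was also among the genes that varied most within libraries, by either of the rankings below. By the lowest excess variance over the 4 libraries, the first 20 were *Nfib*, *Calb2*, *Sox11*, *Syt4*, *Meg3*, *Eif1b*, *Gap43*, *Hs6st2*, *Stmn2* and *Igfbpl1*, then *Actg1*, *Zbtb20*, *Map1b*, *Meis2*, *Pcp4*, *Pik3r1*, *Cttnbp2*, *Fth1*, *Nfix* and *Gm17750*. In control replicate 2, with 3 cells, 1 cell held between 42.3% (*Meis2*) and 100% (*Calb2*) of the UMIs of each of these genes, and in mutant replicate 2 between 17.5% (*Actg1*) and 82.1% (*Syt4*), so these ranks rest in part on single cells. In the replicate 1 libraries alone, a ranking added after the data had been seen, *Nrg1*, *Kcnip4*, *Galntl6*, *Ptprd* and *Malat1* led, *Zbtb20* was ranked 8, and *Nfib* and *Calb2* were not among the first 20. This ranking rests in part on single cells too. In mutant replicate 1, the top cell held 81.9% of the UMIs of *Galntl6*, 42.4% of *Kcnip4*, 30.1% of *Ptprd*, 19.4% of *Nrg1* and 5.97% of *Malat1*.

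Between genotypes, no gene passed the test within these cells. UMIs were summed over members for each library and tested with edgeR's quasi-likelihood test with Benjamini-Hochberg adjustment, with genotype as the only term. Of 4909 genes tested, 0 had an adjusted p under 0.05 (0% called, smallest adjusted p = 0.9999), and 13 (0.265%) had an unadjusted p under 0.05, of which 9 were higher and 4 lower in the mutant (*Cck*, *Ano4*, *Kcnt2* and *Ifngr2*, named after their values had been seen). With the replicate block, which pairs the libraries by replicate number, 0 genes were called (0%), and 86 (1.75%) had an unadjusted p under 0.05. DESeq2 called 0, with 2 genes at an unadjusted p under 0.05. Fits that left out 1 library called 0 genes, except the one without mutant replicate 1, which called 58, 57 of them lower. That leaves mutant replicate 2 as the only mutant library, against control libraries of both software versions.

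*Chd8* (chromosome 14, 52198151 to 52257780), the targeted gene, was at 59.6, 179, 52.2 and 98.3 CPM in members of control 1, control 2, mutant 1 and mutant 2, from 53, 5, 21 and 11 UMIs. The mutant library was lower within each replicate, but the genotypes overlapped, with a log2 change of -0.26 ± 0.71 (SE, edgeR, adjusted p = 0.9999). UMIs at the 3′ end of the transcript need not show the removed part of the allele. Of the 9 chromodomain helicase genes listed, 8 including *Chd8* were tested and none passed, and their median log2 change was 0.32, beside 0.01 over all 4909 genes.

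*Neurod1* (chromosome 2, 79452521 to 79456751) was higher in both mutant libraries. Its level was 152 and 107 CPM in control and 380 and 670 CPM in mutant libraries, from 135, 3, 153 and 75 UMIs, with no overlap between genotypes. The log2 change was 1.93 ± 0.56 (SE, edgeR, adjusted p = 0.9999, unadjusted p = 0.0120), at 1.30 in replicate 1 and 2.74 in replicate 2. With the replicate block it was 1.61 ± 0.37 (SE, edgeR, adjusted p = 0.9999, unadjusted p = 0.00079). For comparison, 14.6% of all genes tested had both mutant libraries above both controls, and 8.66% had both below.

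Of the 20 most variable genes, 5 had both mutant libraries above both controls and 4 had both below, each with an adjusted p of 0.9999 (edgeR). *Calb2* was at 220 and 357 CPM in control and 470 and 902 CPM in mutant libraries (log2 change 1.36 ± 0.56), and *Nfib* at 1977 and 1536 CPM and at 2718 and 4475 CPM (1.09 ± 0.45). *Sox11* was at 1909 and 2037 CPM in control and 2482 and 4725 CPM in mutant libraries (0.94 ± 0.44), and *Zbtb20* at 2611 and 2501 CPM and at 3494 and 4243 CPM (0.67 ± 0.37). *Igfbpl1* was at 1378 and 1322 CPM in control and 1790 and 2233 CPM in mutant libraries (0.65 ± 0.41). The 4 that lay below were *Gap43*, at 1081 and 1072 CPM in control and 689 and 581 CPM in mutant libraries (-0.68 ± 0.45), *Eif1b* (-0.67 ± 0.45), *Hs6st2* (-0.77 ± 0.52) and *Fth1*, which encodes a ferritin subunit (-0.49 ± 0.45). In control replicate 2, 1 cell held 93.3%, 87.0%, 92.3% and 77.6% of the UMIs of these 4. For the 5 that lay above, the top cell there held from 47.1% (*Zbtb20*) to 100% (*Calb2*). *Calb2*, *Nfib*, *Zbtb20* and *Neurod1* were also higher in cells without *Cux2* than in cells with it in both replicate 1 libraries. The share without *Cux2* was 37.5% and 100% in control and 56.1% and 72.7% in mutant libraries, and its part in these differences was not tested.

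Of the genes that the study names for excitatory neurons, *Nlgn1* had a log2 change of -0.45 ± 1.44 and *Rbfox1*, an RNA-binding splicing factor, of 0.02 ± 1.57 (SE, edgeR, adjusted p = 0.9999 for each). These SE come from the fit without a block and take in the gap between replicates. With the replicate block the changes were -0.25 ± 0.40 for *Nlgn1* and -0.00185 ± 0.31 for *Rbfox1*. Without mutant replicate 1, which leaves 1 mutant library, the log2 changes were -3.74 for *Rbfox1* and -2.65 for *Nlgn1*. Without control replicate 1, which leaves 1 control library, they were 3.59 and 4.10. *Rbfox1* was at 4888 and 5043 CPM in replicate 1 (control and mutant) and at 250 and 197 CPM in replicate 2, a gap between replicates far wider than that between genotypes. *Nlgn1* was at 1771 and 1209 CPM in replicate 1 and rested on 1 and 17 UMIs in replicate 2. For the genes of the rule and label, the log2 changes were -0.02 ± 0.47 for *Neurod2*, -0.40 ± 0.54 for *Neurod6*, 0.07 ± 0.94 for *Cux2* and -0.16 ± 0.78 for *Slc17a6* (SE, edgeR, adjusted p = 0.9999 for each), of which the first 2 were fixed in part by the choice of cells.

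Over the lists, no member passed the test in either direction. Over all 4909 genes the median log2 change was 0.01, at 0.0033 within replicate 1 and 0.16 within replicate 2. Of the 11 immature neuron genes tested, the median was 0.26 (0.15 and 0.49 within replicates 1 and 2), and 4 had both mutant libraries above both controls and 1 had both below, where 14.6% and 8.66% of all genes did. Of 8 chromodomain helicase genes, 3 lay above and 0 below (median 0.32 and 0.44 within replicates 1 and 2), and of 5 immediate early genes, 2 and 0 (0.17 and 0.40). The 8 mature neuron genes had a median of -0.17 (-0.10 and -0.21 within replicates), with 0 above and 1 below. For 9 excitatory neuron genes it was -0.23 (0.055 and -0.30), with 2 above and 1 below. Medians of the astrocyte and oligodendrocyte progenitor lists were also above 0. The median was 0.32 for 5 astrocyte genes (0.65 and 0.16) and 0.87 for 2 genes of oligodendrocyte progenitors (0.88 and 1.45), each with 1 above and 0 below. *Cspg5*, the most abundant gene of the progenitor list, was nonetheless lower in the mutant within each replicate. It was at 207 and 107 CPM in control and 117 and 80.4 CPM in mutant libraries. In mutant replicate 1, 1 cell held 25 UMIs of that list.

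For most further lists the medians of the 2 replicates differed in sign. The median was -0.11 for 13 presynaptic genes (-0.042 and 0.14 within replicates 1 and 2), of which 3 lay above and 0 below, and 0.08 for 18 axon guidance genes (0.0055 and -0.046), of which 3 lay above and 1 below. It was -0.04 for 12 postsynaptic and adhesion genes (-0.11 and 0.31), -0.02 for 10 ionotropic glutamate receptor genes (0.17 and -0.043) and -0.26 for 12 ion channel genes (-0.10 and 0.73), with none above or below in these lists. The 5 GABA-A receptor genes had a median of -0.73 (-0.59 and 0), with 1 below, and the 14 cadherin and regional genes one of -0.52 (0.015 and -0.37), with 1 above and 2 below. For 9 upper-layer genes the median was 0.07 (-0.12 and 1.34), with none above or below, and for 6 deep-layer genes 0.05 (0.15 and -0.28), with 1 below.

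**Figure D4:**
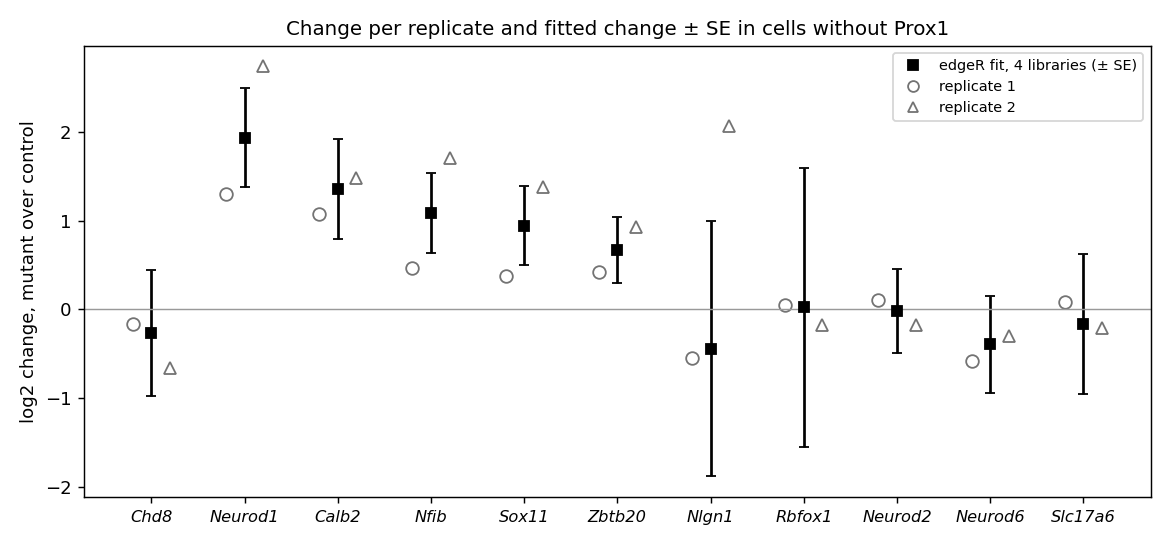
Log2 change, mutant over control, of 11 genes in excitatory neurons without *Prox1*, as fitted by edgeR over 4 libraries (black squares, ± SE) and within replicate 1 (circles) and replicate 2 (triangles). *Neurod1*, *Calb2*, *Nfib*, *Sox11* and *Zbtb20* are above 0 in both replicates, and no gene passed the test.

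RNA of other cell types was present in some members, more so in replicate 2. At least 10 UMIs of the marker list of another cell type were held by 10 of 88 members in control replicate 1, 2 of 3 in control replicate 2, 6 of 41 in mutant replicate 1 and 9 of 11 in mutant replicate 2 (27 in all). The astrocyte list, all 8 of whose genes were found, was the main one, at 472, 1393, 564 and 1251 CPM in members, against 17395, 22189, 15231 and 20823 CPM over all kept cells, with *Fabp7* its most abundant gene by mean CPM and *Apoe* next. *Prox1*-positive cells held it at 498, 1186, 432 and 1443 CPM, a like contrast between replicates.

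In 1 member of control replicate 1 lay 83.8% of the 154 microglial UMIs (*C1qa* and *C1qb* leading), and in 1 member of mutant replicate 1 lay 98.1% of the 52 endothelial and mural UMIs (*Flt1* and *Cldn5* leading), with *Rgs5*, *Pdgfrb* and *Kcnj8* at 0. The inhibitory list was at 21.4, 0, 34.8 and 17.9 CPM, with *Dlx6*, *Lhx6* and *Sst* at 0. The list of oligodendrocyte progenitors, led by *Cspg5*, was at 215 and 107 CPM in control and 191 and 125 CPM in mutant libraries, with *Cspg4* at 0. The rule limited *Aqp4*, *Gja1*, *Dlx1*, *Dlx2* and *Pdgfra*. Low levels of the astrocyte, inhibitory and oligodendrocyte progenitor lists were therefore fixed in part by the choice of cells. Without the 27 members, 78, 1, 35 and 2 remained, and edgeR without a block called 0 genes (14 at an unadjusted p under 0.05). With the replicate block it called 2, of which 1 was higher and 1 lower in the mutant. DESeq2 was run over all members only.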

How the data were processed

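Single-cell libraries were made by the authors from sorted tdTomato-positive cells. They mapped the reads with Cell Ranger to mm10 (7.0.0 in the paper's methods, 7.0.0 and 5.0.1 in the matrix headers, 3.0 in the submitters' processing notes), and the authors deposited, for 32285 genes and each barcode, raw UMI counts that had not been normalized. Cells were selected on these counts with scipy 1.17.1 and numpy 2.4.6, and no doublet caller was run. CPM are UMIs per 1e6 UMIs of a group of cells. Counts summed over members were tested with edgeR 4.0.16 (filterByExpr, TMM, prior count 2) in R 4.3.3, tested on simulated data. Shares were compared with exact permutation tests over the 6 assignments of 4 libraries. Alternatives were a replicate block, DESeq2 1.42.0, no scaling, other filters, limits on cells and thinning, and each library left out. Libraries were paired by replicate number, and those of the same number share a software version and the pattern of sex-linked RNA. Deviations of same-numbered libraries from their genotype means correlated at 0.50 (Pearson, 4909 genes).

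Excess variance is that of Pearson residuals within a library, over genes at 50 CPM or more in each. Ratios between groups of cells used a pseudocount of 5 CPM. Their rankings covered genes at 50 CPM or more in every compared library of the higher group, without rule, mitochondrial, ribosomal protein and sex-linked genes. The text names the genes of the rule, genes that the study names for excitatory neurons, the leading genes by variance, ratio and list level, and other listed genes, which were chosen after their values had been seen. No gene met the rule for called genes. A division of the members by 2 gene pairs that had been planned, and 3 genes that met the rule for naming, are not reported here. Positions are those of the GENCODE vM21 annotation. The members and lists were chosen with earlier results of these data known.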

Additional observations from a re-analysis of the deposited data

Results flagged for a closer look

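The share of excitatory neurons without *Prox1* moved in opposite directions with genotype in the 2 replicates. The difference between mutant and control libraries was -0.817 percentage points of kept barcodes in replicate 1 and 0.234 points in replicate 2, where it rests on 3 control and 11 mutant members. Without the 27 members that held RNA of other cells, it was -0.748 points in replicate 1 and 0.0273 points in replicate 2. The share without *Prox1* among excitatory-gated cells did likewise, at -20.4 points in replicate 1 and 12.5 points in replicate 2. In replicate 2 this difference was 1.54 points on cells thinned to 4000 UMIs and 1.54 points without the 27 members that held RNA of other cells, and in replicate 1 it was -21.7 and -21.0 points. The 27 were taken out of the members only, with no like filter on *Prox1*-positive cells. The difference between the replicates was not tested, since each has 1 library per genotype, and the replicates also differ in software version and in *Xist*.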

How the results depend on the processing

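Values rest mainly on the 129 cells of replicate 1, and control replicate 2 has 3 cells, so 1 UMI there is a large part of a level. Of 194 results under alternatives, 166 kept their direction and their side of the threshold, 25 changed sign and 3 counts of called genes moved, and the cause was not tested unless stated. Leaving out each library gave differences in the share of members from -1.01 to 0.429 points (positive without control replicate 1) and in the share without *Prox1* from -27.6 to 19.7 (positive without control replicate 1 and at 3.21 without mutant replicate 2, and at -10.1 after thinning and -9.74 without the 27 members that held RNA of other cells). For the value of -9.74, *Prox1*-positive cells were not filtered in the same way.

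Called genes ranged from 0 to 58 when a library was left out, and 2 were called with no filter on low counts (*Ccl2* and *Gm44096*, each counted in 1 library) and 2 with the replicate block without the 27 members (*Fbrsl1* higher and *Trhde* lower, chosen after their values had been seen).

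With the replicate block alone, 0 genes were called, as without it, and the log2 change turned to -0.00185 for *Rbfox1*, 0.0199 for *Neurod2* and 0.0569 for *Slc17a6*. *Slc17a6* was at 0.11 with at least 4 UMIs of the *Neurod* genes. *Rbfox1* was at -0.40 and *Cux2* at -0.27 with an upper limit of 20000 UMIs. *Neurod2* was at 0.0641 with no filter and 0.07 at a mitochondrial limit of 5%. *Neurod6* was at 0.42 and, with the block, 0.29 without the 27 members, where *Slc17a6* was at 0.12 with the block. Leaving out a library gave log2 ranges of -1.001 to 0.18 for *Chd8*, -2.65 to 4.10 for *Nlgn1*, -3.74 to 3.59 for *Rbfox1*, -0.12 to 0.19 for *Neurod2*, -0.51 to 3.71 for *Cux2* and -1.70 to 1.23 for *Slc17a6*. *Neurod1*, *Calb2*, *Nfib*, *Sox11* and *Zbtb20* were higher in the mutant under every alternative that gave a value (genes under the stricter filter gave none there), *Neurod1* by 1.22 to 2.34 with adjusted p from 0.0711 to 1, *Calb2* by 0.97 to 2.58 (highest without the 27 members), *Nfib* by 0.79 to 1.41, *Sox11* by 0.54 (without mutant replicate 2) to 1.34 and *Zbtb20* by 0.38 (without the 27 members, with the block) to 0.97.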
